A study of Mus musculus with 6 samples.

Results

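Lysosomal genes were measured by RNA-seq in the epididymal white adipose tissue (WAT) of AdArmc5 KO and Armc5 flox mice. They comprised the subunits of the V-ATPase, the cathepsins, the membrane proteins *Lamp1* to *Lamp3*, and the transcription factors *Tfeb*, *Tfe3* and *Mitf*. Members were chosen by gene symbol alone (symbols beginning with Atp6v0 or Atp6v1, Cts followed by a single letter or digit, and the named genes). This gave 51 genes of the 24346 in the table: 23 V-ATPase genes, 22 cathepsins, 3 Lamp genes and 3 transcription factors. AdArmc5 KO carry floxed *Armc5* alleles and *Adipoq*-Cre, which is expressed in adipocytes, so that *Armc5* is deleted in adipocytes and retained in the other cells of the tissue. Armc5 flox carry the floxed alleles without Cre, and both groups share the floxed alleles and a C57BL/6N origin of the *Armc5* mutant line. There were 3 libraries from each group, prepared from 24-week-old mice that had been fasted for 24 h and refed for 6 h. Nothing in the labels says that each library came from a separate mouse, so the p values measure the spread between these libraries.

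The lysosome is the acidic compartment in which proteins, lipids and glycans are degraded. Its lumen is acidified by the V-ATPase, a rotary proton pump with a cytosolic V1 sector that hydrolyses ATP and a membrane V0 sector that carries protons. The low pH activates the cathepsins, a group of proteases that are made as proenzymes. TFEB, TFE3 and MITF are basic helix-loop-helix leucine zipper factors that bind the CLEAR element, an E-box found near the start sites of many lysosomal genes. In adipose tissue, macrophages are rich in lysosomes, and adipocytes also have them. In bulk tissue, fewer cells of a type and less RNA per cell cannot be told apart.

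To show these E-boxes in the members, the windows that hold the 8-base palindrome TCACGTGA, a CLEAR-type E-box, are printed here. Each runs from 250 bases before to 50 bases after an annotated start in the RefSeq annotation of GRCm38.p6, and the palindrome is in capitals. The V-ATPase windows lie at chr8:105566015-105566314 on the minus strand (*Atp6v0d1*), chr17:26676146-26676445 on the plus strand (*Atp6v0e*) and chr16:44139210-44139509 on the minus strand (*Atp6v1a*). The cathepsin windows lie at chr7:142387778-142388077 on the minus strand (*Ctsd*) and chr2:164833523-164833822 on the plus strand (*Ctsa*).
Atp6v0d1: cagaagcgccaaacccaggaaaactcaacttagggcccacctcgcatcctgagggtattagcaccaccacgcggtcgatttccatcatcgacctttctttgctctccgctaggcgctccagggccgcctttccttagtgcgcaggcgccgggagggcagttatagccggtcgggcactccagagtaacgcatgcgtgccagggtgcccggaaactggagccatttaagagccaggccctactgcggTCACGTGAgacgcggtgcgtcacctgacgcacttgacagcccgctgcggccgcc
Atp6v0e: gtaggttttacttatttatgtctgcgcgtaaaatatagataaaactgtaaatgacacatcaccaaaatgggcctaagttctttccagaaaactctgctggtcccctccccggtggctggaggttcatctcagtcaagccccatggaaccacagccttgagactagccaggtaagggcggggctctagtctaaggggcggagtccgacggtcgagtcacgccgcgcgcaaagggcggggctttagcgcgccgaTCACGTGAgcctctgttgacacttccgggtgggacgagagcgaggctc
Atp6v1a: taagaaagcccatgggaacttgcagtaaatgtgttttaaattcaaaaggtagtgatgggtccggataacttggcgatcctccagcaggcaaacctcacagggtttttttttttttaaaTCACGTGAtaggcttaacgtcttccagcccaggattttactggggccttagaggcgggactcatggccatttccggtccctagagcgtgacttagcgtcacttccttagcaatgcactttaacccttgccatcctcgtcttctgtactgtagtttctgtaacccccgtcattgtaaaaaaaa
Ctsd: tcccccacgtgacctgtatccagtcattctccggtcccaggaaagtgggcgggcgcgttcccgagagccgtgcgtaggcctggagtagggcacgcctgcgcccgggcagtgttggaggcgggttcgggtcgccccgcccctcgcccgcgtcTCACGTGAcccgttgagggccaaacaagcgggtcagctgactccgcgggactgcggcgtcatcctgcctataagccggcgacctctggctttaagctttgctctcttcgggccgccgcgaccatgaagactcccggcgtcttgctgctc
Ctsa: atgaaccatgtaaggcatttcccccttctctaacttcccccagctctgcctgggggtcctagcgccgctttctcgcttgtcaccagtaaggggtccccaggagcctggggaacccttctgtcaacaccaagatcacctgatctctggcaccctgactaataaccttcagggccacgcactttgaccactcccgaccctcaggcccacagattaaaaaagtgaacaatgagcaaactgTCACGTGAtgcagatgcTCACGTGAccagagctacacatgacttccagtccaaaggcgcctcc

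A window was found for 40 of the 51 members. TCACGTGA was in a window of 5 of these 40 genes (12.5%), against 304 of 27025 genes with a window (1.12%). It was in 3 of 16 V-ATPase genes (18.8%) and 2 of 18 cathepsins (11.1%). *Ctsa* had 2 copies in the printed window. The 6-base core CACGTG, which lies inside TCACGTGA, was in 9 of the 40 members (22.5%) and in 8.09% of all genes. Both motifs read the same on either strand. The windows of *Ctsk* and *Ctss* did not contain CACGTG, and *Atp6v0d2* and *Ctsh* had no window. A match shows only these letters and not binding by a factor.

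Sequencing depth, estimated from the deposited values, was between 25320769 and 38311534 fragments per library. *Adipoq*, an adipocyte hormone gene, had an FPKM (fragments per kilobase of transcript, scaled to the size of the library) of at least 1896 in each library. By quantitative PCR, the study found *Armc5* decreased in the WAT of younger AdArmc5 KO mice. It was also decreased in mature adipocyte fractions of WAT from younger and older mice, but not in the stromal vascular fraction. The study's primers read exon 3, whereas the FPKM here is a value per gene. In these libraries of whole tissue, *Armc5* had FPKM of 3.66, 4.48 and 5.82 in AdArmc5 KO replicates 1 to 3. It had 5.12, 5.66 and 5.58 FPKM in Armc5 flox replicates 1 to 3. The library labelled AdArmc5 KO replicate 3 therefore had more *Armc5* than every Armc5 flox library, and the groups overlapped (limma adjusted p = 0.98). The same library had 3122 FPKM of *Akr1b7*, which is expressed in vas deferens, and no other library had over 17.4 FPKM. AdArmc5 KO replicate 2 and Armc5 flox replicate 1 had *Foxj1*, a transcription factor of ciliated cells, at 62.4 and 76.0 FPKM, against at most 0.708 FPKM in the other libraries. In the comparison below, each fold change is AdArmc5 KO over Armc5 flox on the log2(FPKM + 1) scale, which understates the change of genes with a low FPKM. It was fitted with limma for the 12670 genes whose FPKM was 1 or more in 3 or more libraries, and p values were adjusted over all of them.

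Of the 51 members, 35 passed this filter and 16 did not, and 9 were listed at 0 in all 6 libraries. No member passed an adjusted p of 0.05, and neither did any of the 12670 genes (0%). With other software, the study reported genes of the *Scd* family among those most decreased in AdArmc5 KO at its own cutoff. The absence of such genes here held in this limma fit on log2(FPKM + 1) and in each alternative limma setting given below. No count test was run, and the reason for the difference from the study was not tested. The absence does not show that the genotype had no effect. The unadjusted p was under 0.05 and the level higher in AdArmc5 KO for 3 of 12 tested cathepsins (*Ctsk*, *Ctsh* and *Ctss*) and 1 of 18 tested V-ATPase genes (*Atp6v0d2*), against 276 of all genes tested (2.18%). It was under 0.05 and the level lower for none of the members, against 149 of all genes tested (1.18%). Each AdArmc5 KO library was above each Armc5 flox library for 2 cathepsins (*Ctsk* and *Ctsh*) and no V-ATPase gene, against 3.54% of all genes. No member was lower in each AdArmc5 KO library than in each Armc5 flox library, against 5.26% of all genes.

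The cathepsins and the V-ATPase differed in their medians. Of the tested cathepsins, 12 of 12 had a log2 fold change above 0, with a median of 0.39 and a range of 0.03 to 1.01. Of the tested V-ATPase genes, 9 were above 0 and 9 below, with a median of 0.0069 and a range of −0.29 to 1.30. Among all genes tested, 43.5% were above 0 and the median was −0.03. The difference between the lists was not tested. The cathepsin median depended on single libraries: with AdArmc5 KO replicate 1 left out it was 0.18, and with Armc5 flox replicate 1 left out it was 0.16. The plot of fold changes shows every tested member.

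**Figure D1:**
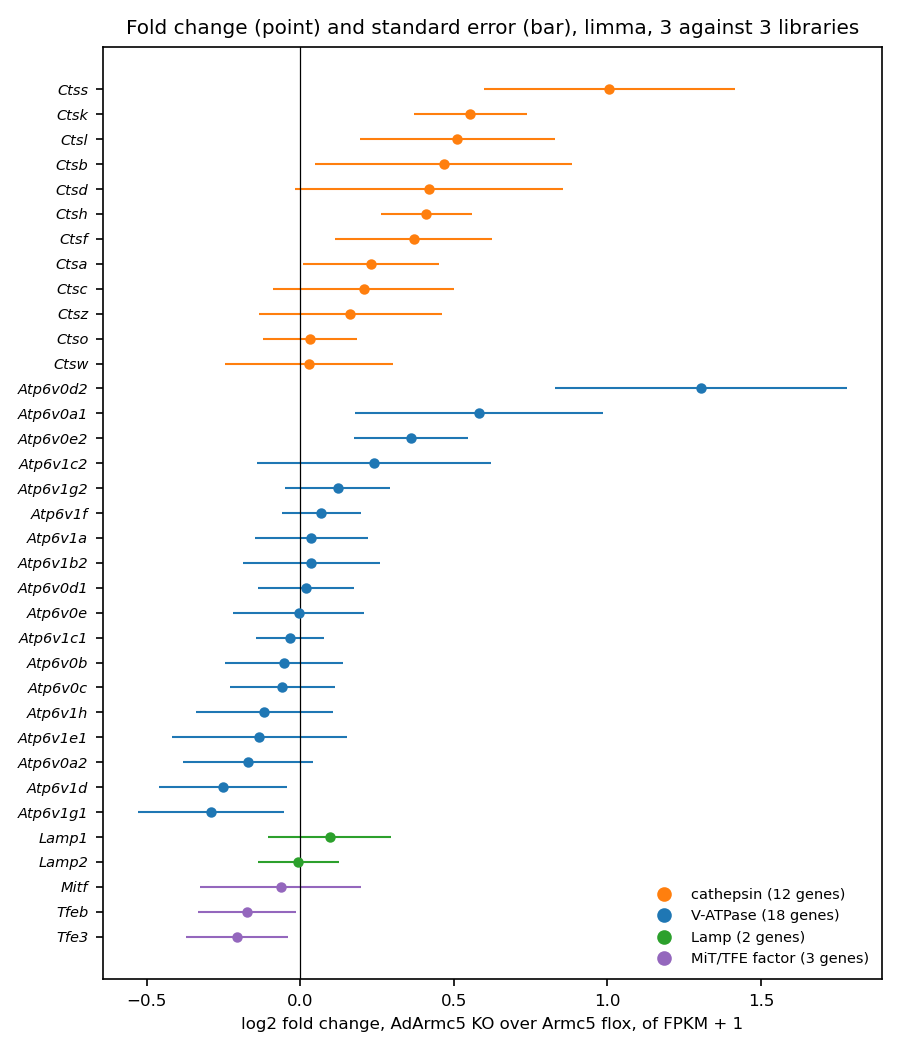
Log2 fold change of FPKM + 1, AdArmc5 KO over Armc5 flox, for the 35 tested members, grouped as cathepsins, V-ATPase genes, Lamp genes and transcription factors; points are limma estimates and bars are standard errors (n = 3, each). All 12 cathepsins lie above 0, and 9 of the 18 V-ATPase genes lie on either side of it.

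The largest log2 fold changes of the tested cathepsins were those of *Ctss* and *Ctsk*. *Ctsk* (chr3:95499210-95509387, GRCm38.p6) encodes the collagen-degrading cathepsin of osteoclasts and is also expressed by fibroblasts. Its FPKM was 27.5, 21.9 and 17.7 in AdArmc5 KO and 14.2, 13.4 and 16.5 in Armc5 flox. The lowest AdArmc5 KO library was above the highest Armc5 flox library. The log2 fold change was 0.55 (SE 0.18, unadjusted p = 0.0224, adjusted p = 0.98, limma). *Ctss* lies beside it on chromosome 3 (chr3:95526786-95556405) and encodes the protease that trims the invariant chain of MHC class II in antigen-presenting cells. Its FPKM was 178, 108 and 80.7 in AdArmc5 KO and 45.6, 95.7 and 42.6 in Armc5 flox. The groups overlapped, as Armc5 flox replicate 2 was above the library labelled AdArmc5 KO replicate 3. The log2 fold change was 1.01 (SE 0.41, unadjusted p = 0.0472, adjusted p = 0.98, limma).

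*Ctsh* (chr9:90054267-90076095), which encodes an aminopeptidase, also had groups that did not overlap. Its FPKM was 81.0, 70.9 and 64.6 in AdArmc5 KO and 53.9, 60.1 and 48.1 in Armc5 flox, with a log2 fold change of 0.41 (SE 0.15, unadjusted p = 0.0314, adjusted p = 0.98, limma). The unadjusted p of *Ctsk*, *Ctsh* and *Ctss* was each under 0.05 in 2 of the 6 fits that each left out 1 library. Without AdArmc5 KO replicate 2 and Armc5 flox replicate 1, the libraries with *Foxj1*, their log2 fold changes were 0.54, 0.42 and 0.90, in the same order. In that fit, none had an unadjusted p under 0.05 (0.109, 0.137 and 0.179 in the same order, limma). *Ctsw*, the cathepsin of cytotoxic lymphocytes, was low, at 0.868, 0.737 and 2.19 FPKM in AdArmc5 KO and 1.15, 0.977 and 1.29 FPKM in Armc5 flox. The groups overlapped, and the library labelled AdArmc5 KO replicate 3 was the highest.

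The most abundant cathepsins were *Ctsd*, *Ctsb*, *Ctsl*, *Ctsz* and *Ctss*, in this order of mean FPKM. *Ctsd*, the major lysosomal aspartic protease, had FPKM of 1604, 970 and 692 in AdArmc5 KO and 488, 1174 and 786 in Armc5 flox (log2 fold change 0.42, SE 0.44). *Ctsb*, a cysteine protease with carboxydipeptidase activity, had FPKM of 728, 439 and 324 in AdArmc5 KO and 225, 537 and 323 in Armc5 flox (log2 fold change 0.47, SE 0.42). Both were highest in AdArmc5 KO replicate 1, second in Armc5 flox replicate 2 and lowest in Armc5 flox replicate 1, so the spread within each group was as large as the difference between the groups. *Ctsz*, a carboxypeptidase, had FPKM of 258, 184 and 154 in AdArmc5 KO and 125, 236 and 177 in Armc5 flox (log2 fold change 0.16, SE 0.30). *Ctsz* had the same highest, second and lowest libraries as *Ctsd* and *Ctsb*.

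*Ctsl*, a cysteine endopeptidase, differed from these in its order. Its FPKM was 459, 420 and 220 in AdArmc5 KO and 221, 299 and 220 in Armc5 flox, with a log2 fold change of 0.51 (SE 0.32, unadjusted p = 0.157, limma). AdArmc5 KO replicates 1 and 2 were above the Armc5 flox libraries, and the library labelled AdArmc5 KO replicate 3 was level with the lowest of them. *Ctsf*, another cysteine protease, had FPKM of 66.2, 56.0 and 38.5 in AdArmc5 KO and 36.4, 52.3 and 34.3 in Armc5 flox (log2 fold change 0.37, SE 0.26). Its groups overlapped through Armc5 flox replicate 2.

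Among the remaining tested cathepsins, *Ctsc* encodes dipeptidyl peptidase I, which activates granule serine proteases. It was nearly the same in the AdArmc5 KO libraries, at 78.4, 78.3 and 76.6 FPKM, while the Armc5 flox libraries spread over 47.2, 106 and 60.5 FPKM. *Ctsa*, the carboxypeptidase that protects β-galactosidase and neuraminidase in the lysosome, averaged 69.4 ± 14.3 FPKM in AdArmc5 KO and 58.9 ± 12.6 FPKM in Armc5 flox (SD, n = 3, each). *Ctso* averaged 22.98 ± 1.88 FPKM in AdArmc5 KO and 22.6 ± 3.72 FPKM in Armc5 flox. These groups overlapped.

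**Figure D2:**
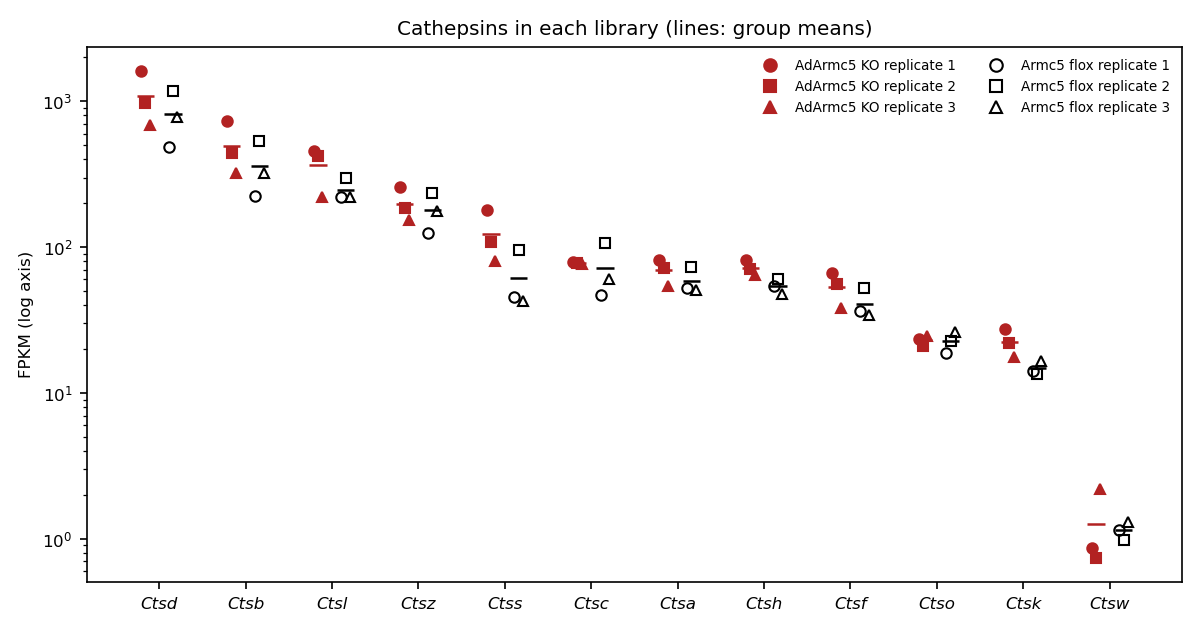
FPKM (log axis) of the 12 tested cathepsins in each library, with AdArmc5 KO (filled symbols) left of Armc5 flox (open symbols); horizontal lines are group means and symbol shapes give the replicate number. Only *Ctsk* and *Ctsh* have AdArmc5 KO libraries that are all above the Armc5 flox libraries, and AdArmc5 KO replicate 1 is the highest library for 9 of the 12 genes.

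The other 10 cathepsins were at or near 0. *Cts3*, *Cts6*, *Cts7*, *Cts8*, *Ctsj*, *Ctsm*, *Ctsq* and *Ctsr*, a rodent cluster on chromosome 13 that is expressed in placenta, were listed at 0 in every library. *Ctse*, an aspartic protease of stomach and immune cells, was between 0.190 and 0.3004 FPKM in AdArmc5 KO and between 0.220 and 0.381 FPKM in Armc5 flox. *Ctsg*, a serine protease of neutrophil and mast cell granules, reached 0.178 FPKM in the library labelled AdArmc5 KO replicate 3, which was an estimated 6 fragments. It was listed at 0 in AdArmc5 KO replicate 2 and in 2 Armc5 flox libraries.

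Cathepsins are abundant in macrophages, so macrophage markers are given beside them. Of 16 macrophage markers, 15 had a log2 fold change above 0, with a median of 0.46, against 43.5% of all genes tested above 0. An unadjusted p under 0.05 with higher levels in AdArmc5 KO was found for 3 of them, against 2.18% of all genes tested. *Fcgr1*, an Fc receptor gene, had FPKM of 6.09, 5.99 and 5.95 in AdArmc5 KO and 3.51, 2.53 and 2.10 in Armc5 flox (log2 fold change 0.93, SE 0.17, unadjusted p = 0.00128, adjusted p = 0.73, limma). *Cd68*, which encodes a lysosomal glycoprotein of macrophages, had FPKM of 148, 119 and 99.3 in AdArmc5 KO and 56.2, 94.9 and 62.0 in Armc5 flox. The 2 groups did not overlap for either gene. *Adgre1*, which encodes F4/80, had FPKM of 40.8, 23.2 and 20.9 in AdArmc5 KO and 13.4, 34.7 and 14.6 in Armc5 flox, and overlapped.

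Of 9 tested genes of lipid-associated macrophages and osteoclasts, 8 were above 0, with a median of 0.67, against 43.5% of all genes tested above 0. *Trem2*, a lipid receptor gene of these cells, had FPKM of 27.8, 19.9 and 14.9 in AdArmc5 KO and 6.01, 11.98 and 13.1 in Armc5 flox (log2 fold change 0.97, SE 0.34, unadjusted p = 0.0263, adjusted p = 0.98, limma), and the groups did not overlap. *Acp5*, the acid phosphatase used as an osteoclast marker, had FPKM of 452, 315 and 173 in AdArmc5 KO and 184, 452 and 313 in Armc5 flox, without a difference in the means beyond the spread.

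The FPKM summed over the 22 cathepsins was 3586, 2442 and 1749 in AdArmc5 KO and 1329, 2671 and 1787 in Armc5 flox. The sum over the 16 macrophage markers was 2589, 1698 and 1505 in AdArmc5 KO and 1187, 2254 and 1204 in Armc5 flox. AdArmc5 KO replicate 1 was the highest, Armc5 flox replicate 2 the second and Armc5 flox replicate 1 the lowest in both sums. The sum over the 23 V-ATPase genes was 1448, 1242 and 1343 in AdArmc5 KO and 1163, 1353 and 1603 in Armc5 flox, and was highest in Armc5 flox replicate 3. The FPKM summed over all genes was 531625, 463703 and 494287 in AdArmc5 KO and 467416, 528102 and 574627 in Armc5 flox. It was highest in the same library as the V-ATPase sum, and the sums of the lists were not scaled to it. The sum over 12 adipocyte markers was 39548, 26647 and 38554 in AdArmc5 KO and 34780, 48821 and 48768 in Armc5 flox. The part of macrophage content in the cathepsin values was not tested.

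**Figure D3:**
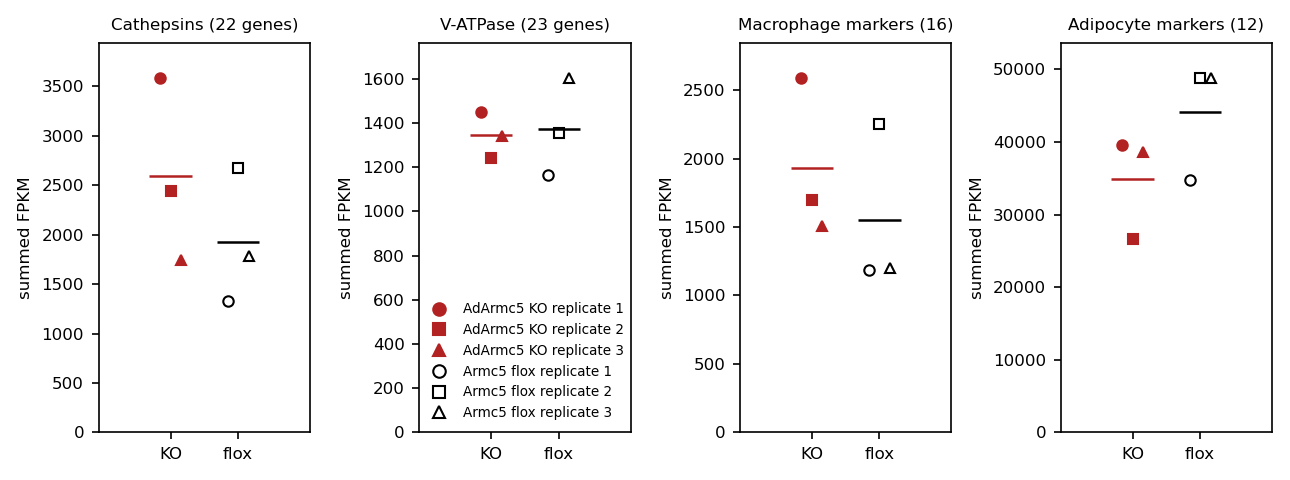
Summed FPKM of the cathepsins, the V-ATPase genes, the macrophage markers and the adipocyte markers in each library, with AdArmc5 KO (filled) left of Armc5 flox (open); lines are group means. The cathepsin and macrophage marker sums have the same highest library (AdArmc5 KO replicate 1) and the same lowest one (Armc5 flox replicate 1). The V-ATPase sum is highest in Armc5 flox replicate 3, as is the FPKM summed over all genes.

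The V-ATPase was described by sector. The V1 sector holds the catalytic A subunits and the B subunits, with stalk and regulatory subunits. Of 10 tested V1 genes, 5 were above 0 and 5 below, with a median of 0.00094. *Atp6v1e1*, the stalk subunit E1, was the most abundant of them, at 163, 122 and 157 FPKM in AdArmc5 KO and 113, 156 and 231 FPKM in Armc5 flox (log2 fold change −0.13, SE 0.28). *Atp6v1f*, a subunit of the central stalk, had FPKM of 119, 107 and 102 in AdArmc5 KO and 107, 97.9 and 107 in Armc5 flox (log2 fold change 0.07, SE 0.13). The groups overlapped for each gene. The genes of the catalytic head, *Atp6v1a* and *Atp6v1b2*, averaged 39.2 ± 3.73 and 82.2 ± 18.5 FPKM in AdArmc5 KO and 38.7 ± 8.81 and 80.0 ± 16.2 FPKM in Armc5 flox (SD, n = 3, each).

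The lowest fold changes of the V-ATPase were those of a peripheral and a central stalk subunit. *Atp6v1g1*, subunit G1, had FPKM of 62.2, 82.1 and 98.8 in AdArmc5 KO and 91.2, 81.4 and 125 in Armc5 flox (log2 fold change −0.29, SE 0.24, unadjusted p = 0.268, limma). *Atp6v1d*, subunit D, had FPKM of 39.2, 39.5 and 49.1 in AdArmc5 KO and 42.7, 45.3 and 67.3 in Armc5 flox (log2 fold change −0.25, SE 0.21, unadjusted p = 0.270, limma). Armc5 flox replicate 3 was the highest library for both. It was the highest for 10 of the 18 tested V-ATPase genes, and AdArmc5 KO replicate 1 for 5. The same 2 libraries had the highest and second highest FPKM summed over all genes, at 574627 and 531625. The highest library was not counted over all genes tested, so these counts are not shown to be particular to the V-ATPase. *Atp6v1h* and *Atp6v1c1*, which encode regulatory subunits, averaged 49.2 ± 7.76 and 33.3 ± 1.53 FPKM in AdArmc5 KO and 54.3 ± 15.0 and 34.1 ± 1.46 FPKM in Armc5 flox.

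The V0 sector holds the proton-carrying ring of c subunits, the a subunit that forms the proton path, and the d and e subunits. *Atp6v0c*, the ring proteolipid, was the most abundant V-ATPase gene, at 264, 237 and 267 FPKM in AdArmc5 KO and 230, 264 and 311 FPKM in Armc5 flox (log2 fold change −0.06, SE 0.17). *Atp6v0e*, subunit e1, had FPKM of 183, 131 and 157 in AdArmc5 KO and 128, 152 and 195 in Armc5 flox (log2 fold change −0.0055, SE 0.21). The groups of both overlapped over most of their range. *Atp6v0b*, the c″ subunit, was between 91.4 and 107 FPKM in AdArmc5 KO and between 85.8 and 133 FPKM in Armc5 flox. *Atp6v0d1*, the d1 subunit, averaged 105.0 ± 7.80 FPKM in AdArmc5 KO and 104.1 ± 14.9 FPKM in Armc5 flox.

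The a subunit has isoforms that direct the pump to different membranes. *Atp6v0a1* had FPKM of 98.5, 73.1 and 39.7 in AdArmc5 KO and 37.0, 67.7 and 33.2 in Armc5 flox (log2 fold change 0.58, SE 0.41, unadjusted p = 0.199, limma). Its order over the libraries was led by AdArmc5 KO replicates 1 and 2 and Armc5 flox replicate 2, and the groups overlapped. *Atp6v0a2*, an isoform of the Golgi and endosomes, averaged 17.4 ± 2.69 FPKM in AdArmc5 KO and 19.95 ± 5.16 FPKM in Armc5 flox. *Tcirg1*, which encodes the a3 isoform of osteoclasts and macrophages and whose symbol lies outside the naming rule, had FPKM of 39.4, 24.3 and 31.4 in AdArmc5 KO and 24.4, 27.5 and 39.9 in Armc5 flox. Of the summed FPKM of the a isoforms, *Atp6v0a1* took 63.0%, 60.6% and 43.8% in AdArmc5 KO and 43.4%, 59.4% and 33.6% in Armc5 flox. These shares also overlapped.

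*Atp6v0e2*, the e2 subunit, had FPKM of 42.8, 40.3 and 29.9 in AdArmc5 KO and 33.5, 28.4 and 25.1 in Armc5 flox. The log2 fold change was 0.36 (SE 0.19, unadjusted p = 0.0970, adjusted p = 0.98, limma), and the groups overlapped because Armc5 flox replicate 1 was above the library labelled AdArmc5 KO replicate 3.

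**Figure D4:**
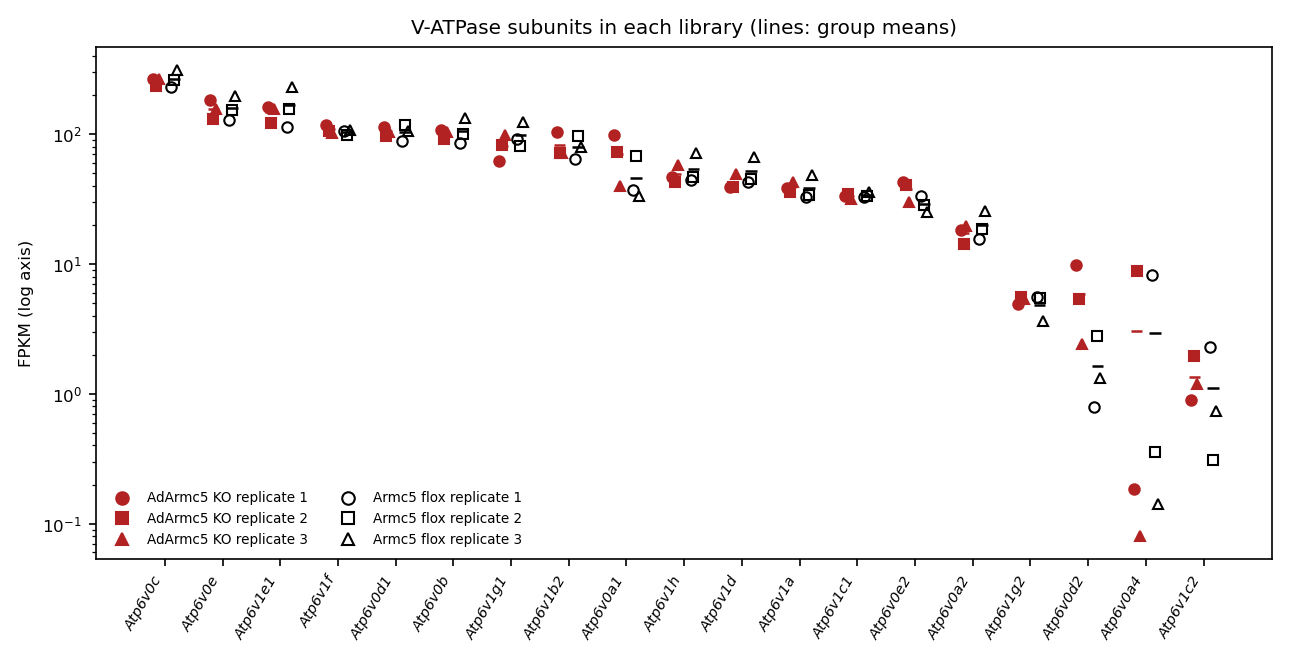
FPKM (log axis) of the 18 tested V-ATPase genes and *Atp6v0a4* in each library, with AdArmc5 KO (filled) left of Armc5 flox (open); lines are group means and shapes give the replicate number. The groups overlap for every gene, and the widest separation of the means is that of *Atp6v0d2*.

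Some V-ATPase isoforms are restricted to a few cell types. *Atp6v0d2* (chr4:19876838-19922566) encodes the d2 subunit of osteoclasts, macrophages and some epithelia, and had the largest fitted log2 fold change of the 35 tested members. Its FPKM was 9.88, 5.39 and 2.43 in AdArmc5 KO and 0.789, 2.79 and 1.34 in Armc5 flox, which were an estimated 551, 403 and 229 fragments in AdArmc5 KO and 62, 182 and 84 fragments in Armc5 flox. AdArmc5 KO replicates 1 and 2 were above each Armc5 flox library, and the library labelled AdArmc5 KO replicate 3 was below Armc5 flox replicate 2. The log2 fold change was 1.30 (SE 0.48, unadjusted p = 0.0318, adjusted p = 0.98, limma), and without a single library it was between 0.90 and 1.73, with an unadjusted p under 0.05 in 2 of the 6 fits. The mean was 5.90 ± 3.75 FPKM in AdArmc5 KO and 1.64 ± 1.03 FPKM in Armc5 flox (SD, n = 3, each). *Atp6v0d2* took 8.02%, 5.22% and 2.28% of the summed FPKM of both d subunits in AdArmc5 KO and 0.886%, 2.31% and 1.24% in Armc5 flox. The remainder was *Atp6v0d1*, the form used by most cells. The sums of the cathepsins and of the macrophage markers had the same highest library, and the part of macrophage content in *Atp6v0d2* was not tested.

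*Atp6v0a4*, the a4 isoform of kidney intercalated cells and other proton-secreting epithelia, was high in a pair of libraries and low in the other 4. Its FPKM was 0.183, 8.83 and 0.0806 in AdArmc5 KO and 8.28, 0.356 and 0.143 in Armc5 flox. It was not tested because only 2 libraries reached an FPKM of 1. The high libraries were AdArmc5 KO replicate 2 and Armc5 flox replicate 1, with an estimated 883.2 and 869.5 fragments, and these are the libraries with *Foxj1*. *Epcam*, an epithelial adhesion gene, was also highest in them, at 40.3 and 45.1 FPKM, and was at 9.19 FPKM in the library labelled AdArmc5 KO replicate 3 and at most 0.687 FPKM in the others. The FPKM summed over 16 ciliated cell markers was 167, 257 and 36.2 in AdArmc5 KO and 277, 102 and 30.1 in Armc5 flox. In AdArmc5 KO replicate 1 and Armc5 flox replicate 2, most of this sum was *Tppp3*, at 163 and 98.4 FPKM. *Foxi1*, the transcription factor of intercalated cells, was listed at 0 in both libraries with *Atp6v0a4*.

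*Atp6v1c2*, the C2 isoform of epithelia, followed the same libraries less sharply, at 0.899, 1.96 and 1.19 FPKM in AdArmc5 KO and 2.29, 0.307 and 0.734 FPKM in Armc5 flox. AdArmc5 KO replicate 2 and Armc5 flox replicate 1 were again the highest of their groups (log2 fold change 0.24, SE 0.38). *Atp6v1g2*, the G2 isoform of neurons, had FPKM of 4.96, 5.62 and 5.37 in AdArmc5 KO and 5.54, 5.43 and 3.64 in Armc5 flox (log2 fold change 0.12, SE 0.17).

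**Figure D5:**
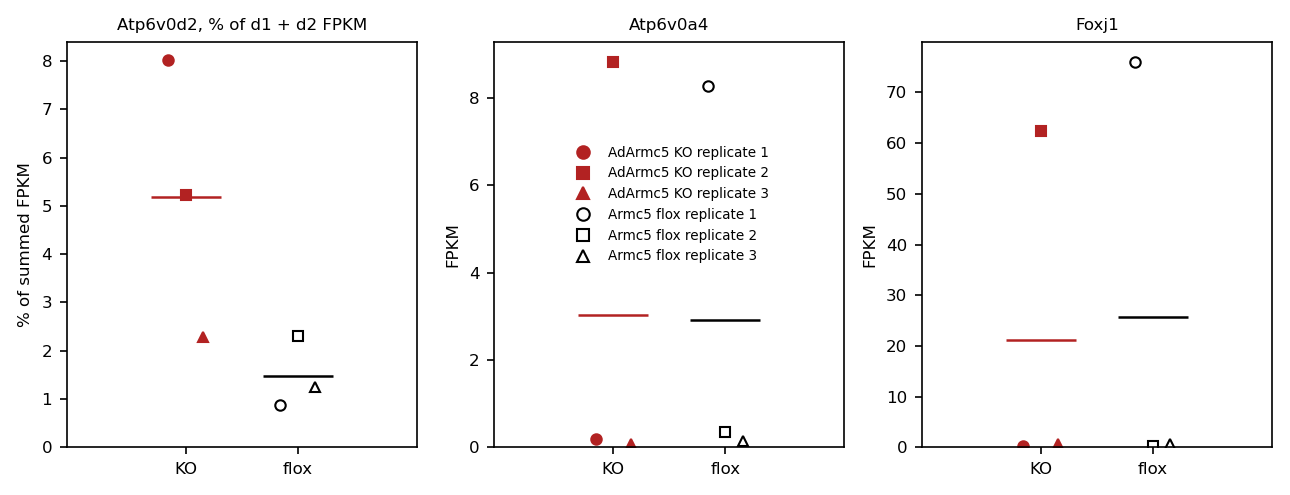
Left, share of *Atp6v0d2* in the summed FPKM of *Atp6v0d1* and *Atp6v0d2* in each library; middle and right, FPKM of *Atp6v0a4* and *Foxj1*. AdArmc5 KO (filled) is left of Armc5 flox (open), lines are group means, and *Atp6v0a4* and *Foxj1* are high in the same pair of libraries, 1 of each group.

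The last V-ATPase genes were near the limit of detection. *Atp6v1b1*, the B1 isoform of intercalated cells and of the clear cells of the epididymis, was listed above 0 in the library labelled AdArmc5 KO replicate 3 only, at 0.0422 FPKM or an estimated 3 fragments. *Atp6v1g3*, the G3 isoform of the same cell types in kidney, was likewise listed above 0 in that library only, at 0.0144 FPKM or 1 fragment. *Foxi1* was at 0.0453 FPKM in that library and at 0 elsewhere, and that library also had *Crisp1*, an epididymal secretory gene, at 685 FPKM. *Atp6v1e2*, the testis isoform, was at 0.150 FPKM or 4 fragments in AdArmc5 KO replicate 2 and at 0 elsewhere. *Atp6v0c-ps2*, an *Atp6v0c* pseudogene, was at 0, 0 and 0.798 FPKM in AdArmc5 KO and at 0, 2.82 and 1.24 FPKM in Armc5 flox. Its values are uncertain because its reads can be shared with *Atp6v0c*.

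The Lamp proteins line the lysosomal membrane. *Lamp1* had FPKM of 435, 358 and 352 in AdArmc5 KO and 288, 393 and 397 in Armc5 flox (log2 fold change 0.10, SE 0.20). *Lamp2*, whose protein is also needed for chaperone-mediated autophagy, had FPKM of 156, 149 and 145 in AdArmc5 KO and 139, 152 and 162 in Armc5 flox (log2 fold change −0.0066, SE 0.13). The AdArmc5 KO libraries lay inside the Armc5 flox range for *Lamp2*. *Lamp3*, a gene of mature dendritic cells and lung epithelium, was listed at 0 in every library.

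The transcription factors had log2 fold changes below 0. *Tfe3* had FPKM of 24.8, 16.8 and 20.3 in AdArmc5 KO and 24.4, 21.6 and 25.1 in Armc5 flox (log2 fold change −0.21, SE 0.17, unadjusted p = 0.258, limma). *Tfeb* had FPKM of 9.68, 8.51 and 11.1 in AdArmc5 KO and 9.38, 11.4 and 12.7 in Armc5 flox (log2 fold change −0.17, SE 0.16, unadjusted p = 0.315, limma). *Mitf* had FPKM of 4.57, 4.21 and 6.10 in AdArmc5 KO and 7.63, 4.97 and 3.56 in Armc5 flox (log2 fold change −0.06, SE 0.26). All 3 overlapped between the groups. Their activity is set largely by the location of the protein, which these data do not measure. Of the genes with TCACGTGA in the printed windows, the 3 V-ATPase genes had log2 fold changes between −0.0055 and 0.04, *Ctsa* was at 0.23 and *Ctsd* at 0.42, and none had an unadjusted p under 0.05.

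Other genes of the lysosome were compared as lists. Beside them, 43.5% of all genes tested were above 0, and 2.18% had an unadjusted p under 0.05 with higher levels in AdArmc5 KO. Of 40 tested hydrolases and cofactors other than cathepsins, 36 were above 0 and 4 below, with a median of 0.27, and 3 had an unadjusted p under 0.05 with higher levels in AdArmc5 KO. *Naglu*, which degrades heparan sulfate, averaged 23.7 ± 4.77 FPKM in AdArmc5 KO and 16.8 ± 2.34 FPKM in Armc5 flox (log2 fold change 0.46, SE 0.19, unadjusted p = 0.0443, limma). *Sumf1*, which activates sulfatases, averaged 25.7 ± 4.13 FPKM in AdArmc5 KO and 18.9 ± 2.96 FPKM in Armc5 flox (log2 fold change 0.42, SE 0.17, unadjusted p = 0.0454, limma), and its groups did not overlap. Of 20 tested lysosomal membrane proteins, 12 were above 0 and 8 below, with a median of 0.07. *Cd68* and *Tpcn2*, a two-pore cation channel gene, were those with an unadjusted p under 0.05, and *Tpcn2* had FPKM of 14.5, 8.96 and 9.56 in AdArmc5 KO and 7.30, 5.87 and 6.71 in Armc5 flox.

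Of 7 tested genes for cathepsin inhibitors and the activating protease *Lgmn*, 6 were above 0, with a median of 0.43, against 43.5% of all genes above 0. *Serpina3g*, a serpin gene of immune cells, was the gene with an unadjusted p under 0.05 (log2 fold change 1.17, SE 0.46, unadjusted p = 0.0415, adjusted p = 0.98, limma), and its FPKM was 1.70, 4.51 and 7.96 in AdArmc5 KO and 1.40, 1.89 and 0.682 in Armc5 flox. *Cst3*, the secreted inhibitor cystatin C, had FPKM of 1605, 1507 and 967 in AdArmc5 KO and 848, 1161 and 927 in Armc5 flox (log2 fold change 0.45, SE 0.28). *Cstb*, the cytosolic inhibitor stefin B, had FPKM of 184, 156 and 106 in AdArmc5 KO and 102, 109 and 111 in Armc5 flox (log2 fold change 0.43, SE 0.22). *Lgmn*, asparaginyl endopeptidase, had FPKM of 139, 116 and 80.7 in AdArmc5 KO and 72.7, 104 and 56.3 in Armc5 flox (log2 fold change 0.53, SE 0.29). The highest library of *Cst3*, *Cstb* and *Lgmn* was AdArmc5 KO replicate 1, as for 9 of the 12 tested cathepsins, and the groups overlapped for each gene of the list. *Lgmn*, *Acp5* and *Cd68* are each on more than 1 of the lists.

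Of 11 tested V-ATPase accessory, assembly and regulatory genes, 5 were above 0 and 6 below, with a median of −0.04. *Atp6ap1* and *Atp6ap2*, the accessory subunits, averaged 101.6 ± 7.60 and 38.7 ± 1.97 FPKM in AdArmc5 KO and 94.8 ± 12.4 and 35.9 ± 6.06 FPKM in Armc5 flox. *Tmem199* and *Ccdc115*, which encode V-ATPase assembly factors, were lower in each AdArmc5 KO library than in each Armc5 flox library, as were 5.26% of all genes tested, and neither had an unadjusted p under 0.05. *Tmem199* had FPKM of 12.2, 10.8 and 12.7 in AdArmc5 KO and 13.7, 13.1 and 19.8 in Armc5 flox (log2 fold change −0.34, SE 0.18, unadjusted p = 0.103, limma). *Ccdc115* had FPKM of 9.38, 8.73 and 8.65 in AdArmc5 KO and 10.2, 9.97 and 10.7 in Armc5 flox (log2 fold change −0.19, SE 0.11, unadjusted p = 0.125, limma). The Ragulator complex, the Rag GTPases and their regulators dock at the lysosome beside the V-ATPase. Of their 14 tested genes, 2 were above 0 and 12 below, with a median of −0.09, against 43.5% of all genes above 0. None had an unadjusted p under 0.05, against 2.18% higher and 1.18% lower among all genes tested.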

How the data were processed

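Epididymal WAT was profiled in 3 AdArmc5 KO and 3 Armc5 flox libraries by poly(A)-selected, stranded, paired-end RNA-seq. Per the study's methods and the submitters' processing notes, the authors mapped reads to mm10 with TopHat2 2.0.13, Bowtie2 2.2.3 and SAMtools 0.1.19 and computed FPKM with Cuffnorm 2.2.1. The deposited FPKM were used for all comparisons. The deposited normalized counts, a signal scaled by Cuffnorm between libraries, served to estimate fragments and as an alternative. In each library, 98.7% to 99.0% of their values lay within 0.1 of a whole fragment. The 6 deposited columns of log2 values were not used, nor were the authors' columns of comparisons between the genotypes. Counting error limits values of a few fragments, and PCR duplicates are not independent.

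The labels gave groups and replicate numbers, and the study's text gave the age and the feeding state. Genes whose FPKM was 1 or more in 3 or more of the 6 libraries (12670) were fitted on log2(FPKM + 1) with limma 3.58.1 (R 4.3.3; genotype only, trended eBayes), with Benjamini-Hochberg adjustment over these genes. For a single gene, 3 against 3 libraries cannot give an exact two-sided permutation p under 0.1. The fit was tested on simulated data. Alternatives were other pseudocounts, filters and scalings, no trend, a replicate block, normalized counts, and leaving out libraries. Gene positions, start sites and promoter sequences are from RefSeq (GRCm38.p6, the mm10 assembly). The naming rule reads gene symbols only, but the rule and the gene lists were chosen with earlier results of these data known. Named members were the 5 tested V-ATPase genes and 5 tested cathepsins with the smallest p, the 4 V-ATPase genes and 5 cathepsins with the highest mean FPKM, the Lamp genes, the transcription factors and the tissue-restricted V-ATPase isoforms, and other members are given by level. Lists of T and NK cell, mast cell and granulocyte, epithelial, epididymal and proton-secreting cell genes were also read.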

Additional observations from a re-analysis of the deposited data

How the results depend on the processing

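No gene passed an adjusted p of 0.05 in limma under any setting run. Of 12670 genes, 425 had an unadjusted p under 0.05, against 274 to 669 under the alternatives. The 274 were of 12670 genes without AdArmc5 KO replicate 1, and the 669 were of 19592 genes without the filter. The cathepsin median log2 fold change was 0.16 to 0.54 and the V-ATPase median −0.10 to 0.09 without a single library. Of the 24 named members that were tested, 5 changed sign in 7 of 240 values under the 10 alternatives that left out no single library. After median-of-ratios rescaling the log2 fold changes of *Atp6v0e* and *Lamp2* were 0.023 and 0.022, and after quantile normalization they were 0.0081 and 0.019. With both libraries that had *Foxj1* left out, *Ctsz* had a log2 fold change of −0.036, *Lamp1* of −0.013 and *Mitf* of 0.27. Leaving out single libraries changed the sign of 9 genes, with ranges of −0.16 to 0.054 for *Atp6v0c*, −0.15 to 0.16 for *Atp6v0e*, −0.38 to 0.13 for *Atp6v1e1*, −0.074 to 0.38 for *Ctsz*, −0.056 to 0.18 for *Lamp1*, −0.066 to 0.046 for *Lamp2*, −0.28 to 0.18 for *Mitf*, −0.049 to 0.62 for *Atp6v1c2* and −0.039 to 0.21 for *Atp6v1g2*. The cause was not tested. A count test on whole fragments was not run, because they could not be recovered for all genes.

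With the replicate number as a block, 0 genes passed an adjusted p of 0.05 and 575 had an unadjusted p under 0.05, and the cathepsin and V-ATPase medians were 0.39 and 0.0069. The same-numbered libraries deviated from their group means with correlations of −0.53, −0.41 and 0.58 across 12670 genes, which are not independent replicates. Only the library labelled AdArmc5 KO replicate 3 correlated best with its own number among the AdArmc5 KO libraries. The study compared littermates, but nothing in the labels says that a replicate number marks a litter. These correlations cannot decide it, because deviations from the mean of 3 libraries are tied to each other. Genes at a few fragments could not be compared at this depth.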

Other observations

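Granulocytes and lymphocytes express proteases that include *Ctsg*, *Ctsc* and *Ctsw*. Of 8 tested mast cell and granulocyte genes, 6 had a log2 fold change above 0 and 2 below, with a median of 0.22, against 43.5% of all genes above 0. *S100a8*, a calprotectin subunit gene of neutrophils, had FPKM of 52.1, 29.8 and 22.5 in AdArmc5 KO and 12.2, 32.2 and 7.13 in Armc5 flox (log2 fold change 1.14, SE 0.56). *S100a9*, which encodes its partner, had FPKM of 1.91, 7.204 and 3.14 in AdArmc5 KO and 6.70, 28.01 and 8.27 in Armc5 flox (log2 fold change −1.46, SE 0.60, unadjusted p = 0.0487, adjusted p = 0.98, limma). Of 5 tested T and NK cell genes, 5 were above 0 with a median of 0.25, and *Gzma*, a granzyme gene whose product is activated by cathepsin C, had FPKM of 1.48, 1.47 and 1.22 in AdArmc5 KO and 1.09, 0.962 and 0.9996 in Armc5 flox. The FPKM summed over 9 genes of proton-secreting epithelial cells was 9.92, 27.9 and 14.0 in AdArmc5 KO and 25.5, 5.88 and 10.1 in Armc5 flox, with the highest library of each group being that with *Atp6v0a4*. Most of this sum in AdArmc5 KO replicate 2 and Armc5 flox replicate 1 was *Car2*, at 19.5 and 18.3 FPKM. *Foxi1*, also on this list, was listed at 0 in both, so the sum does not show that such cells were present. The sum over 11 epithelial genes was 2.63, 308 and 102 in AdArmc5 KO and 370, 14.5 and 20.4 in Armc5 flox, and that over 15 epididymis and vas deferens genes 0.518, 3.83 and 3808 in AdArmc5 KO and 1.15, 2.21 and 21.4 in Armc5 flox. Of 12 adipocyte markers, 6 were above 0 and 6 below, with a median of −0.10, and *Plin4*, a lipid droplet protein gene, had FPKM of 618, 405 and 646 in AdArmc5 KO and 789, 1077 and 946 in Armc5 flox.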
